A study of Mus musculus with 4 samples.

Results

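The genes described here encode proteins of bone matrix and of the osteoblast and osteocyte surface: Spp1, Ibsp, Dmp1, Mepe, Sparc, Bglap, Ifitm5, Pdpn and Pth1r. They were found by gene symbol, and 8 of the 9 had a row among the 19171 genes analysed. Mepe is not analysed here. Expression was measured by RNA sequencing in primary cells released with collagenase from the calvaria (skull bone) of C57BL/6 mice at postnatal day 10. All cells carried floxed alleles of the miR-17 cluster and lacked the miR-106b cluster (mir17fl/fl:106b-/-). In 2 libraries (Cre) the cells had been infected with an adenovirus expressing Cre, which cuts out DNA between loxP sites, and in the 2 others (YFP) with one expressing YFP. RNA was taken 3 days after infection. The virus dose was chosen to infect more than 80% of cells, so a library can hold cells that did not recombine, and the virus carries Cre into any cell type of the culture. The comparison addresses the loss of the miR-17 cluster where the miR-106b cluster is already absent. The inserted protein and the deletion differ together between the groups and cannot be told apart.

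Osteoblasts lay down a matrix of type I collagen that is later mineralised, and osteocytes are osteoblasts that have become buried in it. Spp1 (osteopontin), Ibsp (bone sialoprotein), Dmp1 and Mepe belong to the SIBLING family, secreted phosphorylated glycoproteins whose genes lie next to each other. Osteopontin binds integrins and CD44, bone sialoprotein promotes mineral nucleation, and DMP1 is a regulator of mineralisation and phosphate balance made mainly by osteocytes. Sparc (osteonectin) is a collagen-binding matrix protein made by many mesenchymal cells, whereas Bglap (osteocalcin) is a vitamin K-dependent protein of mature osteoblasts. Ifitm5 encodes a membrane protein of osteoblasts, Pdpn (podoplanin) a membrane glycoprotein of early osteocytes that other cells also make, and Pth1r the receptor for parathyroid hormone and PTHrP.

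The miRNAs of both clusters fall into 4 seed groups, and 1 mature sequence of each is shown because a transcript paired with that seed is a candidate target. Sequences are from RefSeq on GRCm38.p6, and capitals mark the seed, bases 2 to 8. The miR-17 seed is shared by miR-17, miR-20a, miR-106b and miR-93, the miR-19 seed by miR-19a and miR-19b, and the miR-92 seed by miR-92a and miR-25.
miR-17-5p (chr14:115043684-115043706, plus strand): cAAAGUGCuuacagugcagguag
miR-18a-5p (chr14:115043867-115043889, plus strand): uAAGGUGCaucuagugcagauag
miR-19a-3p (chr14:115044048-115044070, plus strand): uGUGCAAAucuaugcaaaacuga
miR-92a-3p (chr14:115044476-115044496, plus strand): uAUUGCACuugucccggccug

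Sites of 7 bases complementary to these seeds were sought in the longest annotated 3′ UTR of each member (GENCODE M21, GRCm38). Spp1 held 1 site, for the miR-17 group, in a 3′ UTR of 432 bases. Ibsp held 1 site, for the miR-92 group, in a 3′ UTR of 896 bases, and there an A follows the site. No such site was found in the longest 3′ UTRs of Dmp1, Mepe, Sparc, Bglap, Ifitm5, Pdpn and Pth1r, which were 134 to 1131 bases long. Over 10963 tested genes with an annotated 3′ UTR, 14.9% held the miR-17 site, 7.63% the miR-92 site and 34.2% at least 1 of the 4 sites. A match is a description and says nothing of use by the miRNA. Both sites are shown 5′ to 3′ with the match in capitals.
Spp1 3′ UTR (chr5:104440804-104440833, plus strand): caaaagcttctGCACTTTgcttctgttctt
Ibsp 3′ UTR (chr5:104310651-104310680, plus strand): aactcaggaagGTGCAATataacagatgtg

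The values are FPKM, reads per length of transcript and per number of reads mapped in that library, so levels of different genes can be set beside each other. They summed to 461677 and 471021 in the Cre libraries and to 458756 and 462419 in the YFP libraries. Read numbers per gene were not used here and the depth behind each value is unknown. Genes with at least 1 FPKM in at least 2 libraries (12046) were compared with limma on log2(FPKM + 1), two-sided, with a Benjamini-Hochberg adjusted p under 0.05 as the threshold. Among the genes of the lists below, 6 met this minimum in the Cre libraries alone, so that only a rise could be tested, and 1, the cartilage gene Col9a1, in the YFP libraries alone. A log2 change is Cre minus YFP on that scale and understates the change of low genes. The labels do not state whether the 2 libraries of a group are separate cultures or animals. The p-values therefore measure only how much these libraries vary, and that variation may be technical.

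The members ranged widely in expression. Spp1 ranked 2 and Sparc 6 of all genes by mean FPKM, Pdpn ranked 294 and Pth1r 7481. The other 4 members, Bglap, Ifitm5, Ibsp and Dmp1, had group means of at most 1.09 FPKM. Spp1 stood above Sparc in every library, and Sparc, Pdpn and Pth1r were separated from their neighbours by more than the spread between libraries. Ifitm5 and Ibsp were not separated from each other by that measure in either group. Bglap, Ifitm5, Ibsp and Dmp1 did not meet the expression minimum and were not tested in the main comparison. Of the 4 members tested, 2 rose with Cre (Spp1 and Pdpn) and 0 fell in limma, also at an unadjusted p under 0.05 (median log2 change 0.16). Of all tested genes, 32.9% were called, 16.6% higher and 16.3% lower (median log2 change -0.01).

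**Figure D1:**
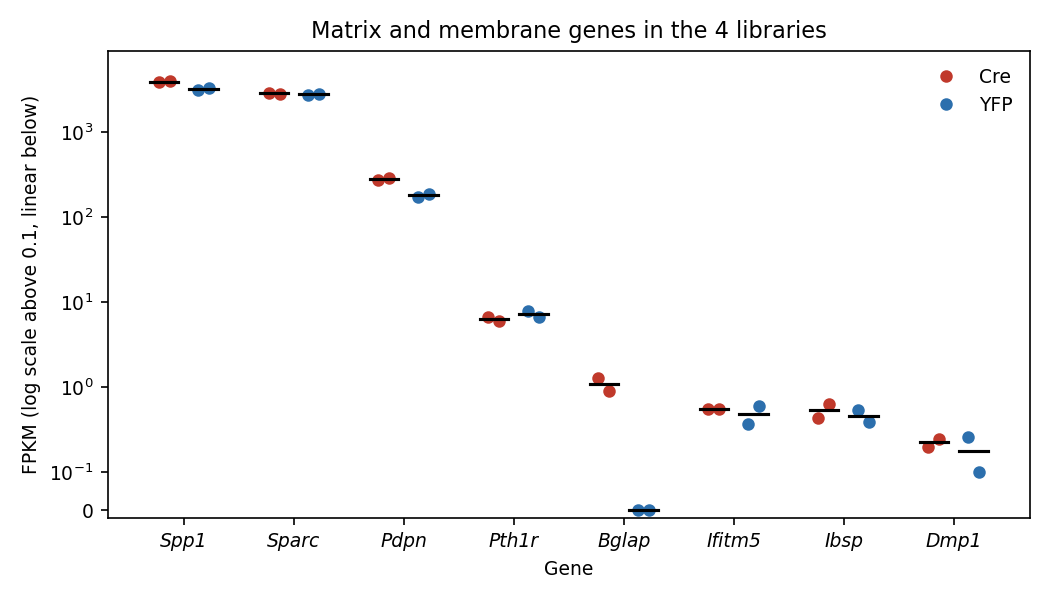
FPKM of the 8 members with a row, with a logarithmic axis above 0.1 and a linear one below; each point is 1 library (2 Cre in red, 2 YFP in blue) and each black bar is the group mean. Spp1 and Pdpn are the tested members whose Cre points lie wholly above their YFP points, and Bglap is listed at 0 in both YFP libraries. Among all tested genes, 66.9% had groups that did not overlap, in either direction.

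Spp1 (Entrez 20750) encodes osteopontin. It had 3854.59 and 3919.16 FPKM in the Cre libraries, against 3125.89 and 3242.09 FPKM in the YFP libraries. Both Cre libraries were above both YFP libraries. Among all tested genes, 66.9% had groups that did not overlap, in either direction. The means were 3887 ± 45.7 FPKM with Cre and 3184 ± 82.2 FPKM with YFP (SD, n = 2 each), a ratio of 1.22. The log2 change was 0.29 (95% confidence interval 0.18 to 0.40, SE 0.05, limma adjusted p = 0.00148). Of the 1998 genes called higher, 57% rose by at least as much. Spp1 took 0.835% and 0.832% of the FPKM sum in the Cre libraries, against 0.681% and 0.701% in the YFP libraries. Spp1 did not pass with quantile normalization, which gave a log2 change of 0.07 (limma adjusted p = 0.362). Quantile normalization sets a value from its rank alone, and Spp1 ranked 2 in both Cre libraries and 2 and 3 in the YFP libraries.

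Ibsp (Entrez 15891), the bone sialoprotein gene, had 0.44 and 0.63 FPKM in the Cre libraries, against 0.54 and 0.39 FPKM in the YFP libraries. The groups overlapped, and when genes of all levels were tested its log2 change was 0.07 (95% confidence interval -0.15 to 0.28, limma adjusted p = 0.673). Dmp1 (Entrez 13406) had 0.20 and 0.25 FPKM with Cre, against 0.26 and 0.10 FPKM with YFP. Its groups overlapped as well, with a log2 change of 0.06 without the minimum (95% confidence interval -0.11 to 0.22, limma adjusted p = 0.633). Osteopontin, which many cell types make, was thus the one SIBLING gene listed above 1 FPKM in these cultures among the 3 analysed.

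Sparc (Entrez 20692), the osteonectin gene, had 2882.27 and 2792.75 FPKM in the Cre libraries, against 2746.56 and 2802.85 FPKM in the YFP libraries. The groups overlapped, and the means of 2838 ± 63.3 FPKM with Cre and 2775 ± 39.8 FPKM with YFP (SD, n = 2 each) did not differ beyond the threshold (log2 change 0.03, 95% confidence interval -0.08 to 0.14, limma adjusted p = 0.662). The ratio of Spp1 to Sparc within a library was 1.34 and 1.40 with Cre, against 1.14 and 1.16 with YFP. That ratio does not change when each library is scaled by 1 factor. Quantile normalization does not scale in that way, and with it the log2 changes of Spp1 and Sparc were 0.07 and 0.

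Bglap (Entrez 12096) encodes osteocalcin, of which the mouse has near-identical copies, Bglap2 and Bglap3, so reads can be split between them and the value of any single copy is uncertain. Bglap had 1.27 and 0.91 FPKM in the Cre libraries and was listed at 0 in both YFP libraries. Without the expression minimum it was called higher (limma adjusted p = 0.00174), with no fold to give against values listed at 0. Bglap2 had 2.81 and 1.85 FPKM with Cre, against 1.54 and 0.53 FPKM with YFP, and did not pass the test (log2 change 0.74, 95% confidence interval -0.62 to 2.10, limma adjusted p = 0.283). Leaving out YFP replicate 1 gave a log2 change of 1.11 that passed (limma adjusted p = 0.00549). Leaving out YFP replicate 2 gave 0.38 (adjusted p = 0.204), Cre replicate 1 gave 0.53 (0.537) and Cre replicate 2 gave 0.95 (0.358). Bglap3 had 0.64 and 0.50 FPKM with Cre, against 0.23 and 0.42 FPKM with YFP.

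Summing the copies leaves the split of reads between them aside. The sum of Bglap, Bglap2 and Bglap3 was 4.72 and 3.26 FPKM in the Cre libraries, against 1.77 and 0.95 FPKM in the YFP libraries. Both Cre sums were above both YFP sums, and groups that did not overlap, in either direction, were found for 66.9% of all tested genes. The means were 3.99 ± 1.03 FPKM with Cre and 1.36 ± 0.58 FPKM with YFP (SD, n = 2 each), a ratio of 2.93. The log2 change of the sum was 1.09 (95% confidence interval 0.22 to 1.95, limma adjusted p = 0.075), which misses the threshold. The sum was formed after the values had been seen. Its highest library, at 4.72 FPKM, was below the level of Pth1r in any library.

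Ifitm5 (Entrez 73835) had 0.56 and 0.56 FPKM in the Cre libraries, against 0.37 and 0.61 FPKM in the YFP libraries. The groups overlapped (log2 change 0.07 without the minimum, 95% confidence interval -0.15 to 0.29, limma adjusted p = 0.653). Its relatives Ifitm2 and Ifitm3, membrane proteins that restrict virus entry in many cell types, were between 483.11 and 742.78 FPKM in the 4 libraries. Of the 7 genes listed as IFITM relatives or as Fkbp11, whose protein binds IFITM5 in osteoblasts, 4 were tested, 2 rose and 1 fell. Fkbp11 rose by 0.30 (limma adjusted p = 0.00137), Ifitm3 by 0.21 (adjusted p = 0.0129, and 0.16 without Cre replicate 1), and Ifitm1 fell by 0.23 (adjusted p = 0.00697, and 0.0655 without Cre replicate 1).

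**Figure D2:**
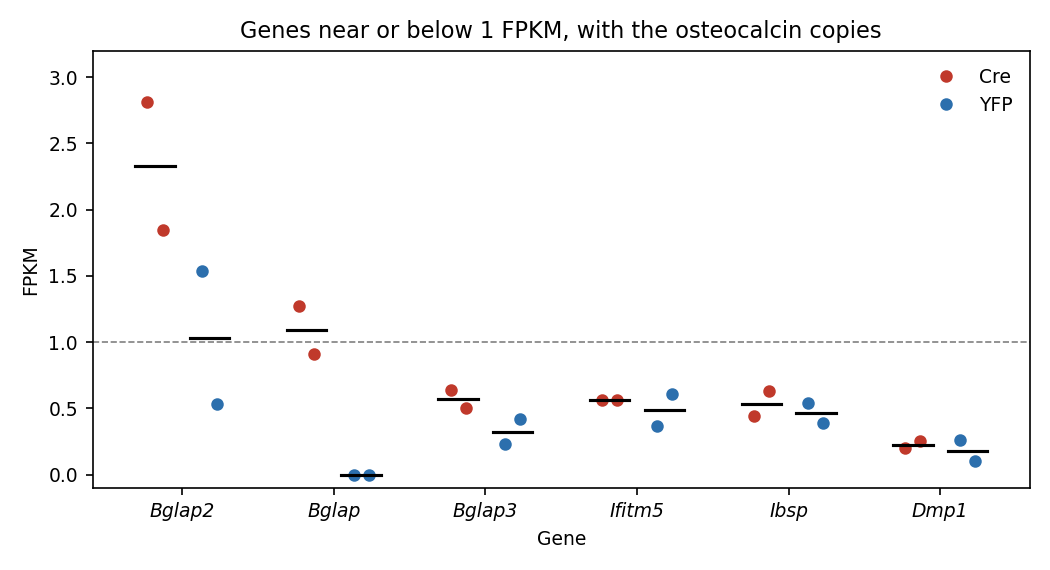
FPKM, on a linear axis, of the members near or below 1 FPKM and of the osteocalcin copies Bglap2 and Bglap3; each point is 1 library (2 Cre in red, 2 YFP in blue), black bars are group means, and the dashed line is the minimum of 1 FPKM. The 3 osteocalcin genes, which can share reads, have their Cre points above their YFP points, while those of Ifitm5, Ibsp and Dmp1 overlap. Among all tested genes, 66.9% had groups that did not overlap, in either direction. Of the genes shown, only Bglap2 was tested.

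Pdpn (Entrez 14726) encodes podoplanin, a mucin-type membrane protein that links to the actin cytoskeleton and marks osteocytes as they form processes. It had 275.77 and 289.73 FPKM in the Cre libraries, against 172.75 and 187.62 FPKM in the YFP libraries. Both Cre libraries were above both YFP libraries, and 66.9% of all tested genes had groups that did not overlap, in either direction. The means were 282.8 ± 9.87 FPKM with Cre and 180.2 ± 10.5 FPKM with YFP (SD, n = 2 each), a ratio of 1.57. The log2 change was 0.65 (95% confidence interval 0.53 to 0.76, SE 0.05, limma adjusted p = 1.12e-05), and 12.3% of the 1998 rises were at least as large. Over the alternatives tried it ranged between 0.59 and 0.71 and was called each time (highest adjusted p = 0.00163).

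Of 9 genes listed as podoplanin partners, 7 were tested, 2 rose and 1 fell (median log2 change 0.07). Cd9, a tetraspanin that binds podoplanin, rose by 0.33 (limma adjusted p = 0.000315). Rdx, an ezrin-family linker of membrane proteins to actin, fell by 0.29 (adjusted p = 0.000721). The related linkers Ezr and Msn had log2 changes of 0.07 each and were not called (adjusted p = 0.299 and 0.292). Cd44, a hyaluronan receptor that also binds osteopontin, rose by 0.16 (adjusted p = 0.0309), a call lost in 6 of 11 alternatives, among them leaving out YFP replicate 1 (adjusted p = 0.142), Cre replicate 1 (0.19) or Cre replicate 2 (0.131).

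Hist1h2ac and Gpx3 were among the 3 tested genes nearest to Pdpn in pattern. Likeness was the Euclidean distance between log2(FPKM + 1) values centred on each gene's mean over the 4 libraries, and their distances were 0.0278 for Hist1h2ac and 0.046 for Gpx3. Gpx3, a secreted glutathione peroxidase gene, had 155.06 and 159.99 FPKM with Cre, against 96.88 and 108.21 FPKM with YFP. Hist1h2ac is a histone gene with near-identical copies, at 1.93 FPKM or less in each library. With 4 libraries in 2 groups, such likeness holds little beyond the size of the change.

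Pth1r (Entrez 19228), the receptor through which parathyroid hormone acts on osteoblasts, had 6.66 and 5.98 FPKM in the Cre libraries, against 7.90 and 6.63 FPKM in the YFP libraries. The higher Cre value lay just above the lower YFP value, so the groups overlapped. The means were 6.32 ± 0.481 FPKM with Cre and 7.265 ± 0.898 FPKM with YFP (SD, n = 2 each), and the log2 change of -0.17 was not called (95% confidence interval -0.36 to 0.01, limma adjusted p = 0.141). It was called lower, with a log2 change of -0.28, without YFP replicate 2 (adjusted p = 0.0147).

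Of 25 genes of PTH signalling, from ligands and G proteins to cAMP enzymes and receptor regulators, 23 were tested, 4 rose and 1 fell (median log2 change -0.02). Gnas, which encodes the stimulatory G protein that couples to the receptor, had 779.26 and 786.24 FPKM with Cre, against 784.48 and 751.58 FPKM with YFP, and was not called (limma adjusted p = 0.699). Pthlh, the gene of the ligand PTHrP, had 1.08 and 1.27 FPKM with Cre, against 0.70 and 0.56 FPKM with YFP, and met the minimum in the Cre libraries alone. It was called higher by 0.42 (adjusted p = 0.00566), a call lost with quantile normalization (adjusted p = 0.0565). Prkar2b, a regulatory subunit of protein kinase A, fell by 0.30 (adjusted p = 0.00127). Gna11 rose by 0.18 (adjusted p = 0.0123), a call lost without Cre replicate 1 (0.102) and without Cre replicate 2 (0.0845). The calls of Adcy7, an adenylyl cyclase gene, and of Slc9a3r1, a scaffold gene that binds the receptor, were each lost in 5 of 11 alternatives (highest adjusted p = 0.274 and 0.302). All 4 rises were thus lost in at least 1 alternative.

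The other bone genes give the setting in which the members were measured. The type I collagen genes were abundant: Col1a1 had 1730.30 and 1683.87 FPKM with Cre, against 1778.23 and 1706.69 FPKM with YFP, and was not called (limma adjusted p = 0.693). Col1a2 had 1081.20 and 1023.87 FPKM with Cre, against 1328.98 and 1242.18 FPKM with YFP, and fell by 0.29 (adjusted p = 0.00218, and 0.0562 without Cre replicate 2). The osteoblast transcription factor genes Runx2 and Sp7 were between 10.28 and 12.11 FPKM and between 1.81 and 2.43 FPKM in the 4 libraries, and neither was called (adjusted p = 0.141 and 0.117). Alpl, the alkaline phosphatase gene of mineralising osteoblasts, was between 1.53 and 2.49 FPKM. The osteocyte genes Phex and Fgf23 were below 1 FPKM in every library, and Sost is not analysed here. The cultures, labelled as bone, thus held abundant type I collagen, Sparc and Spp1 RNA, while the markers of mature osteoblasts and osteocytes differed in level. Ibsp, Ifitm5, Dmp1, Phex and Fgf23 were below 1 FPKM in every library. The osteocalcin copies summed to between 0.95 and 4.72 FPKM, and Alpl was between 1.53 and 2.49 FPKM. Pdpn, which other cells also make, was far above these levels. Phospho1, a phosphatase gene of mineralising osteoblasts, had 6.79 and 7.69 FPKM with Cre, against 6.85 and 7.98 FPKM with YFP, and was not called (limma adjusted p = 0.815).

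Of 14 genes of osteoblast transcription, collagen and mineral enzymes, 13 were tested, 3 rose and 4 fell (median log2 change -0.12). Ank, a transporter that raises extracellular pyrophosphate, rose by 0.44 (limma adjusted p = 6.41e-05). Bmp1, the protease that trims procollagen and activates DMP1, rose by 0.40 (adjusted p = 0.000102). Enpp1, an enzyme that makes pyrophosphate, rose by 0.35 (adjusted p = 0.000524). Atf4, a transcription factor gene of amino acid supply and osteoblast differentiation, fell by 0.38 (adjusted p = 9.28e-05). The other falls were those of Col1a2 and of the transcription factor genes Dlx5 and Msx2 (log2 changes of -0.33 and -0.22). The calls of Dlx5, Msx2 and Col1a2 were lost in 1, 2 and 1 of 11 alternatives, each with a Cre library left out. Atf4 and the 3 rises lost no call.

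Of 10 osteocyte genes other than the members, 7 were tested, 3 rose and 2 fell (median log2 change 0.09). Tnfrsf11b, which encodes the RANKL decoy receptor osteoprotegerin, had 21.91 and 20.09 FPKM with Cre, against 43.06 and 43.71 FPKM with YFP, and fell by 1.01 (limma adjusted p = 4.95e-07). Fam20c, the kinase that phosphorylates SIBLING proteins, had 8.64 and 8.90 FPKM with Cre, against 5.75 and 5.40 FPKM with YFP, and rose by 0.57 (adjusted p = 6.77e-05). Gja1, a gap junction gene of osteocyte networks, fell by 0.33 (limma adjusted p = 0.000319), and Capg, an actin-capping gene, rose by 0.30 (adjusted p = 0.00162). The remaining rise was that of Cd44, which is also counted among the podoplanin partners.

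Relatives and partners of the other members were compared in the same way. RGD is the motif through which osteopontin and bone sialoprotein bind integrins. Of 11 receptor genes listed for such matrix proteins, among them Cd44, which is not an integrin, 10 were tested. Of these, 2 rose and 1 fell (median log2 change 0.01). One rise was that of Cd44, lost in 6 of 11 alternatives. The fall was that of Itga8 (log2 change -0.22), lost in 4 of 11. Itga5 rose by 0.42 (limma adjusted p = 9.21e-05), while Itgav and Itgb3, the subunits of the classical osteopontin receptor, had log2 changes of 0.09 and 0.10 and were not called (adjusted p = 0.213 and 0.224). Of 7 SPARC relatives, 6 were tested, 2 rose and 1 fell (median -0.01). Spock1 had 1.08 and 1.05 FPKM with Cre, against 0.38 and 0.36 FPKM with YFP, and so met the minimum in the Cre libraries alone (log2 change 0.59, adjusted p = 0.00045, and 0.00327 with genes of all levels). Sparcl1 rose by 0.44 (adjusted p = 0.000569), whereas Fstl1 fell by 0.19 (adjusted p = 0.0113), which did not pass without Cre replicate 1 (0.0522) or without Cre replicate 2 (0.141).

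Of 6 genes of vitamin K-dependent carboxylation and Gla proteins, the class of osteocalcin, 2 were called higher and 1 lower (median log2 change 0.06). Mgp, the matrix Gla protein gene and an inhibitor of calcification, had 292.59 and 285.21 FPKM with Cre, against 570.23 and 578.83 FPKM with YFP, and fell by 0.99 (limma adjusted p = 2.45e-07). Gas6, a Gla-containing ligand of receptor kinases, rose by 0.49 (adjusted p = 2.32e-05), and Pros1 by 0.20 (adjusted p = 0.00689, and 0.0926 without Cre replicate 1). The carboxylase gene Ggcx was not called (log2 change 0.04, adjusted p = 0.666).

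**Figure D3:**
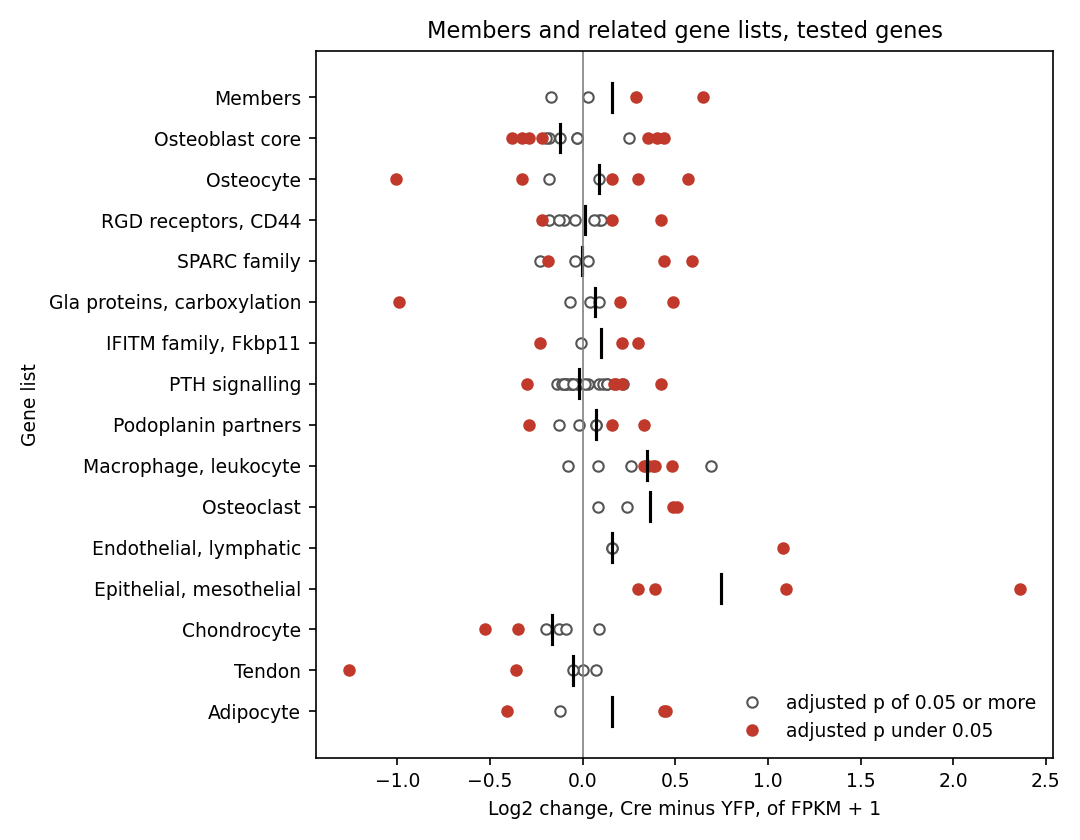
Log2 change (Cre minus YFP, of FPKM + 1) of each tested member and of each tested gene in 15 related lists; filled points passed an adjusted p of 0.05, open points did not, and black bars are list medians. The called members are Pdpn at 0.65 and Spp1 at 0.29, and the osteocyte and Gla lists reach -1.01 (Tnfrsf11b) and -0.99 (Mgp). The point farthest to the left is Tnmd of the tendon list at -1.26, and the one farthest to the right is Krt18 at 2.36.

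Spp1 and Pdpn are also made by cells other than osteoblasts, and markers of several such cells moved with the groups. In bulk RNA, fewer cells of a type and less RNA per cell cannot be told apart. Of 14 markers of macrophages and other leukocytes, cells that can make osteopontin and podoplanin, 10 were tested, 6 rose and 0 fell. They summed to 138.7 and 149.1 FPKM with Cre, against 107.9 and 105.4 FPKM with YFP. Most of that sum was Lyz2, with 99.07 and 104.77 FPKM with Cre, against 79.81 and 75.07 FPKM with YFP. Of the 6 calls, 3 were lost with a library left out: Csf1r without Cre replicate 2 (limma adjusted p = 0.1), Itgam without Cre replicate 2 (0.196), and Fcer1g without YFP replicate 1 (0.119) or YFP replicate 2 (0.138). Lyz2 rose by 0.39, Tyrobp by 0.38 and Laptm5 by 0.35 (limma adjusted p = 0.000199, 0.00126 and 0.0028). The pan-leukocyte gene Ptprc was between 0.27 and 0.37 FPKM in the 4 libraries. Osteoclasts also make osteopontin, and of 8 of their markers 4 were tested, 2 rose and 0 fell, although Mmp9 and Atp6v0d2 met the minimum in the Cre libraries alone. The call of Acp5 was lost without Cre replicate 2 (limma adjusted p = 0.0663). The markers summed to 104.6 and 105.1 FPKM with Cre, against 98.36 and 95.52 FPKM with YFP. Most of that sum was Ctsk, with 98.67 and 98.11 FPKM with Cre, against 94.37 and 91.54 FPKM with YFP. Ctsk was not called (limma adjusted p = 0.184). The defining genes Dcstamp and Ocstamp were at most 0.15 FPKM.

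Lymphatic endothelium and mesothelium are known for podoplanin. Of 8 endothelial and lymphatic markers, 3 were tested, 1 rose and 0 fell. They summed to 11.69 and 12.25 FPKM with Cre, against 7.12 and 7.03 FPKM with YFP. Most of that difference was Flt4, with 6.52 and 6.83 FPKM with Cre, against 2.72 and 2.56 FPKM with YFP. Cdh5 and Kdr were not called (limma adjusted p = 0.143 and 0.161). The endothelial gene Pecam1 was between 0.36 and 0.42 FPKM in the 4 libraries. Flt4, a VEGF receptor gene of lymphatic endothelium, rose by 1.08 (limma adjusted p = 1.76e-06), while the defining lymphatic genes Prox1 and Lyve1 were at most 0.22 FPKM. Lyve1, with 0.22 and 0.20 FPKM with Cre against 0.05 and 0.05 FPKM with YFP, had groups that did not overlap, and was below the minimum. Of 10 epithelial and mesothelial markers, 4 were tested, 4 rose and 0 fell. They summed to 24.58 and 27.39 FPKM with Cre, against 12.24 and 11.88 FPKM with YFP. Most of that difference was the keratin gene Krt18, with 8.54 and 9.38 FPKM with Cre, against 0.96 and 0.91 FPKM with YFP. The epithelial genes Epcam and Cdh1 were at most 0.53 FPKM. Krt18 and the mesothelial surface gene Msln met the minimum in the Cre libraries alone, so the count is partly set by it. Krt19 rose by 0.39 (limma adjusted p = 0.00129). Msln had 1.84 and 1.87 FPKM with Cre, against 0.36 and 0.31 FPKM with YFP, and was also called higher when genes of all levels were tested (limma adjusted p = 0.000725). Krt8 lost its call in 4 alternatives, among them leaving out YFP replicate 1 (limma adjusted p = 0.112), Cre replicate 1 (0.0691) or Cre replicate 2 (0.186). The mesothelial genes Upk3b and Wt1 were at most 0.08 FPKM. At an unadjusted p under 0.05 the falls in these 4 lists were again 0. The part of other cell types in the changes of Spp1 and Pdpn was not tested.

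Markers of the other skeletal and stromal lineages gave 0 rises and 2 falls of 6 tested chondrocyte genes, 0 rises and 2 falls of 5 tendon genes, and 2 rises and 1 fall of 4 tested adipocyte genes. Of these, the falls of Col9a1 and of the tendon gene Thbs4 were lost without Cre replicate 2 (limma adjusted p = 0.068 and 0.0786), and that of Col9a1 also without Cre replicate 1 (0.0586). The chondrocyte markers summed to 115.8 and 117.8 FPKM with Cre against 132.9 and 124.0 FPKM with YFP. Most of that sum was Col2a1, with 97.51 and 99.26 FPKM with Cre, against 112.48 and 103.89 FPKM with YFP. Col2a1 was not called (limma adjusted p = 0.0597). Acan had 1.94 and 1.97 FPKM with Cre, against 3.47 and 3.07 FPKM with YFP, and fell by 0.53 (limma adjusted p = 0.000471). The tendon markers summed to 180.6 and 175.4 FPKM with Cre against 243.5 and 243.5 FPKM with YFP. Within that sum, Tnmd had 42.48 and 41.1 FPKM with Cre, against 99.11 and 104.55 FPKM with YFP. Tnmd fell by 1.26 (limma adjusted p = 6.54e-08). Scx, Mkx and Fmod had log2 changes of 0, 0.07 and -0.05 and were not called. The adipocyte markers summed to 20.78 and 22.81 FPKM with Cre against 19.04 and 20.05 FPKM with YFP. Fabp4 and Cebpa rose by 0.44 and 0.45, and Pparg fell by 0.41 (limma adjusted p = 0.00161, 0.0032 and 0.00143).

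The promoters of Spp1 and Bglap are shown because Spp1 was the most abundant member and Bglap was listed at 0 in both YFP libraries, while Runx2, whose protein binds the core ACCACA, was measured in all libraries. The core was searched on both strands in windows of 300 bases from 250 before to 50 after each RefSeq start (GRCm38.p6). Among the 9 genes it was found for Spp1, Bglap, Dmp1, Mepe and Sparc, in 5 of 13 windows, and 16.8% of all 32851 windows held it. The core begins 128 bases before the Spp1 start shown and 132 bases before the Bglap start. The window of another Spp1 start held no core, and the Sparc core begins 35 bases after its start. A match describes letters in a window, not a bound site. The stretches run from 180 to 81 bases before the start, with the core in capitals.
Spp1 promoter (chr5:104434931-104435030, plus strand): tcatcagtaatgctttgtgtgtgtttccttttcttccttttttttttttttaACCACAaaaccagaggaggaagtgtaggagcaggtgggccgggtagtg
Bglap promoter (chr3:88384547-88384646, minus strand): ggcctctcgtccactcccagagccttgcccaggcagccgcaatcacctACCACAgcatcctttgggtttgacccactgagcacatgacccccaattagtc

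**Figure D4:**
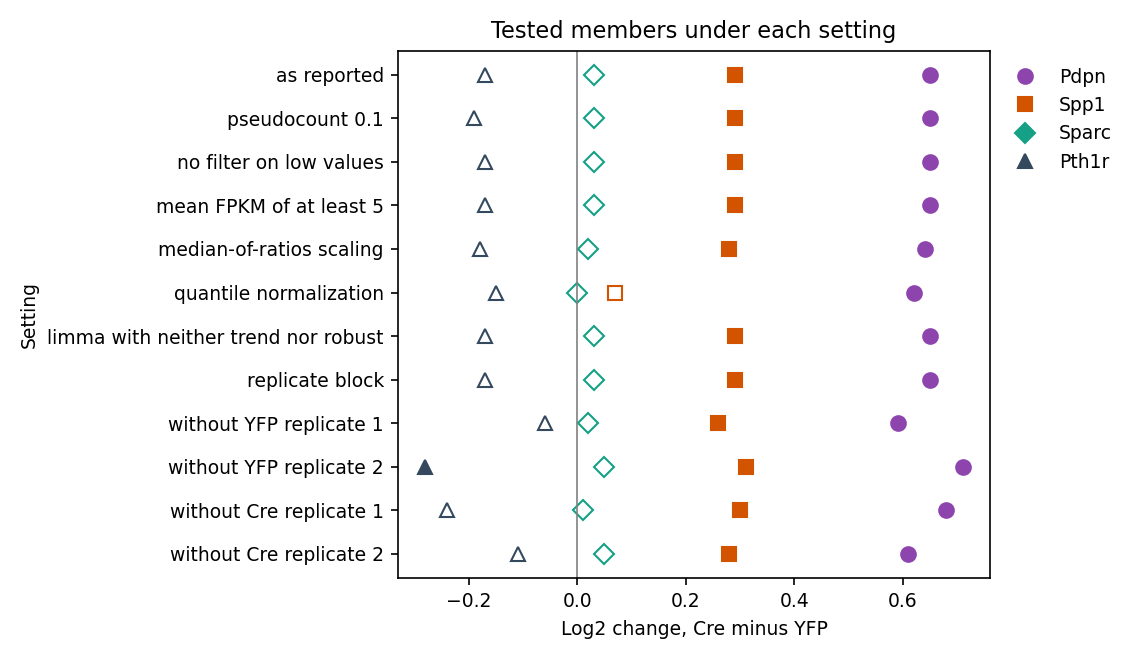
Log2 change (Cre minus YFP) of the 4 tested members as reported and under 11 alternative settings; filled symbols passed an adjusted p of 0.05 and open symbols did not. Pdpn stays between 0.59 and 0.71, Spp1 is open only with quantile normalization at 0.07, Sparc is never filled, and Pth1r is filled only without YFP replicate 2 at -0.28.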

How the data were processed

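Per the labels' protocols, the libraries were polyA-selected (1 ug of RNA each) and read from a single end on the BGISEQ-500, with 30 M reads planned. The authors deposited FPKM values to 2 decimals, 1 column per library, matched to samples by the number in the column name. Per the submitters' processing notes, Bowtie 02.2.5 and the build mm8 were used; how reads were counted, on which annotation and whether by strand is not given in the sources used here. Because depth is unknown, the counting error of the values cannot be given.

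Values were taken as log2(FPKM + 1) for genes with at least 1 FPKM in at least 2 libraries and compared with limma 3.58.1 (R 4.3.3, trend and robust empirical Bayes), with Benjamini-Hochberg adjustment over all tested genes. The procedure was tested on simulated data with noise drawn independently for each library. There it recovered most of the changes put in but made false calls above the nominal share. Calls close to the threshold are therefore less certain than their adjusted p states. By how much is not known, since far fewer genes were changed there than were called in these data. The changes put in were larger than that of Spp1, so recovery of changes as small was not tested. List genes were matched by Entrez identifier. Members and lists were chosen with earlier results of these data known. Text names all members, up to 4 genes per list with the smallest p, defining markers, osteocalcin copies and, of the 3 genes nearest to Pdpn, 2, since the other is not reported here. Other genes were named after their values or the loss of their calls had been seen. Among them are receptor, G protein, collagen, transcription factor, linker, leukocyte, endothelial and epithelial genes. Seed sites and promoters use GRCm38, a build other than mm8. Alternatives were a pseudocount of 0.1, no minimum, a mean FPKM of at least 5, median-of-ratios scaling, quantile normalization, limma with neither trend nor robust, a replicate block, leaving out each library, and, added after seeing the data, the osteocalcin copies summed.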

Additional observations from a re-analysis of the deposited data

How the results depend on the processing

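Of the 4 tested members, Pdpn and Sparc kept their side of the threshold in all 11 alternatives (log2 changes of 0.59 to 0.71 and of 0 to 0.05). The call of Spp1 was lost with quantile normalization, where its log2 change was 0.07 and 1 member was called higher instead of 2. Leaving out 1 library at a time gave log2 changes of 0.26 to 0.31 for Spp1 and of -0.28 to -0.06 for Pth1r, which passed without YFP replicate 2, so that 0 to 1 members were called lower. Genes called higher numbered 975 to 1934 and genes called lower 845 to 1732 with a library left out, with the fewest without Cre replicate 2; without Cre replicate 1 there were 1193 and 1136. Fewer samples then enter the fit. With no minimum, Bglap was called as well. Replicate numbers in the labels were used as a replicate block. The correlation of the deviations of same-numbered libraries was -0.0313 over 12046 genes. With 2 pairs, that value cannot show whether same-numbered libraries were prepared together. With the block, Spp1 and Pdpn had log2 changes of 0.29 and 0.65 (limma adjusted p = 0.00314 and 2.92e-05), no call of a tested member changed, Bglap2 passed (adjusted p = 0.000735), and 1851 genes were called higher and 1682 lower. Unknown depth limits what can be said of members near 0 FPKM.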
